A study of Mus musculus with 9 samples.

Results

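The WNT ligands, their receptors and their secreted modulators form a module of 46 protein-coding genes in these data. It holds 19 WNT ligands, 10 Frizzled receptors, 2 LRP coreceptors, 4 R-spondins, 3 LGR receptors of the R-spondins, 4 secreted Frizzled-related proteins and 4 Dickkopf proteins. The members were taken by gene symbol from the 35896 genes to which deposited transcripts could be assigned, by a rule that names no measured value but was written with earlier results of these data known. Of the 46, 32 passed the filter on low counts and were tested.

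Poly-A RNA of E14, an established mouse embryonic stem cell line, was sequenced in 9 libraries that make up 3 groups of 3. The control cells with LIF2i were held in self-renewal medium containing serum, the cytokine LIF, 1 µM PD0325901 (an inhibitor of MEK) and 1 µM CHIR99021 (an inhibitor of glycogen synthase kinase 3). Control cells without LIF2i had spent 72 h in the same serum medium after removal of all 3 additions and are called withdrawn controls. CK666 cells spent the same 72 h without LIF2i in 80 µM CK666, a drug that blocks the Arp2/3 complex, the builder of branched actin networks. It came from a DMSO stock. Whether the controls received DMSO is not stated, so drug and solvent cannot be told apart. Removal of LIF2i also removes CHIR99021, and the effects of losing LIF, PD0325901 and CHIR99021 cannot be told apart either. All 3 groups come from 1 cell line.

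WNT ligands are lipid-modified secreted proteins that bind a Frizzled receptor together with LRP5 or LRP6, which stops the destruction of beta-catenin and lets it act with TCF/LEF factors on target genes. R-spondins bind LGR receptors and keep Frizzled and LRP proteins at the cell surface, whereas secreted Frizzled-related proteins bind WNT ligands outside the cell and most Dickkopf proteins bind the LRP coreceptors. In mouse embryonic stem cells the pathway is known for its part in self-renewal, and glycogen synthase kinase 3, the kinase blocked by CHIR99021, is the one that marks beta-catenin for destruction.

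The libraries held 16894327 to 22550952 estimated counts. Replicate 1 libraries had 15690 to 17605 genes above 0 and the others 18166 to 18749. All 5 markers of embryonic stem cells averaged at least 1 TPM in each group (a length-corrected share of a library's transcripts). Their summed level was 3331 to 3980 TPM with LIF2i, 1469 to 1864 without it and 1660 to 1904 with CK666. Most of the sum without LIF2i was Pou5f1, which averaged 1687 TPM with LIF2i, 1379 without it and 1455 with CK666. Esrrb averaged 422, 13.7 and 35.4 TPM in the same order, and Zfp42 620, 33.8 and 47.4. Nanog averaged 581, 140 and 167 TPM, and Sox2 335, 98.8 and 97.6. Markers of other cells were also present. The 4 neural markers summed to 29.4 to 184 TPM with LIF2i, 12.8 to 64.2 without it and 19 to 64.4 with CK666, of which Tubb3 in self-renewal replicate 1 gave 176, and Neurog2 was at 0 in 8 of the 9 libraries. The 6 fibroblast markers summed to 4.71 to 7.32 TPM with LIF2i, 24.5 to 31.2 without it and 14.6 to 24.4 with CK666, largely through Thy1, while Lum was at 0 in 8 of the 9 libraries. The 6 primitive endoderm markers summed to 5.12 to 8.95, 9.77 to 30.9 and 12.2 to 23.2 TPM in the same order. The higher sums were largely Dab2, which averaged 2.41, 12.5 and 10.2 TPM. Gata4 averaged 3.35, 3.22 and 5.44 TPM and Gata6 0.446, 0.46 and 0.591. The 5 markers of primitive streak and mesoderm summed to 3.85 to 8.31, 4.51 to 9.7 and 2.3 to 4.82 TPM, and the 4 of trophoblast to at most 2.72. The part of these shifts in the results was not tested.

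Self-renewing cells and cells without LIF2i differed in the levels of many WNT receptors and secreted modulators. By group mean the leading Frizzled transcript was Fzd5 with LIF2i and Fzd7 without it, although Fzd5 and Fzd7 were close in self-renewal replicate 2, at 27.8 and 29.0 TPM. The leading secreted Frizzled-related transcript changed from Sfrp1 to Sfrp2 in every pair of libraries. The R-spondin receptor Lgr4 rose 2.86-fold, and the ligand Wnt9a rose 5.44-fold. Of the 32 tested members, 25 passed an adjusted p of 0.05 in edgeR's quasi-likelihood test, 19 raised and 6 lowered. Among all 14648 genes tested 40.7% passed, 21.1% as raised and 19.7% as lowered. The median log2 fold change was 1.21 over the tested members and 0.01 over all genes. A gene expressed in 1 group alone passes the filter on low counts through that group, so these counts describe the tested members and not the module. In bulk RNA, fewer cells of a type and less RNA per cell cannot be told apart. On the CPM scale each of the 25 moved in its direction in all 3 same-numbered pairs of libraries. Over all annotated transcripts the TPM of Lgr6 was nevertheless lower without LIF2i in replicate 2 (0.796 and 0.341). Of this 0.796 TPM, 0.580 belonged to a transcript not annotated as coding, and over coding transcripts alone Lgr6 was higher in all 3 pairs. Of the 25, 22 also passed without the replicate block, where 24% of all genes passed. The TPM ranges of the 2 groups did not overlap for 18 members that were higher and 6 that were lower after withdrawal, against 19.4% and 15.3% of all genes. Without self-renewal replicate 3, 11 members were called as raised. The count over all genes also varied with the library left out, so the 11 alone is no result about the members.

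**Figure D1:**
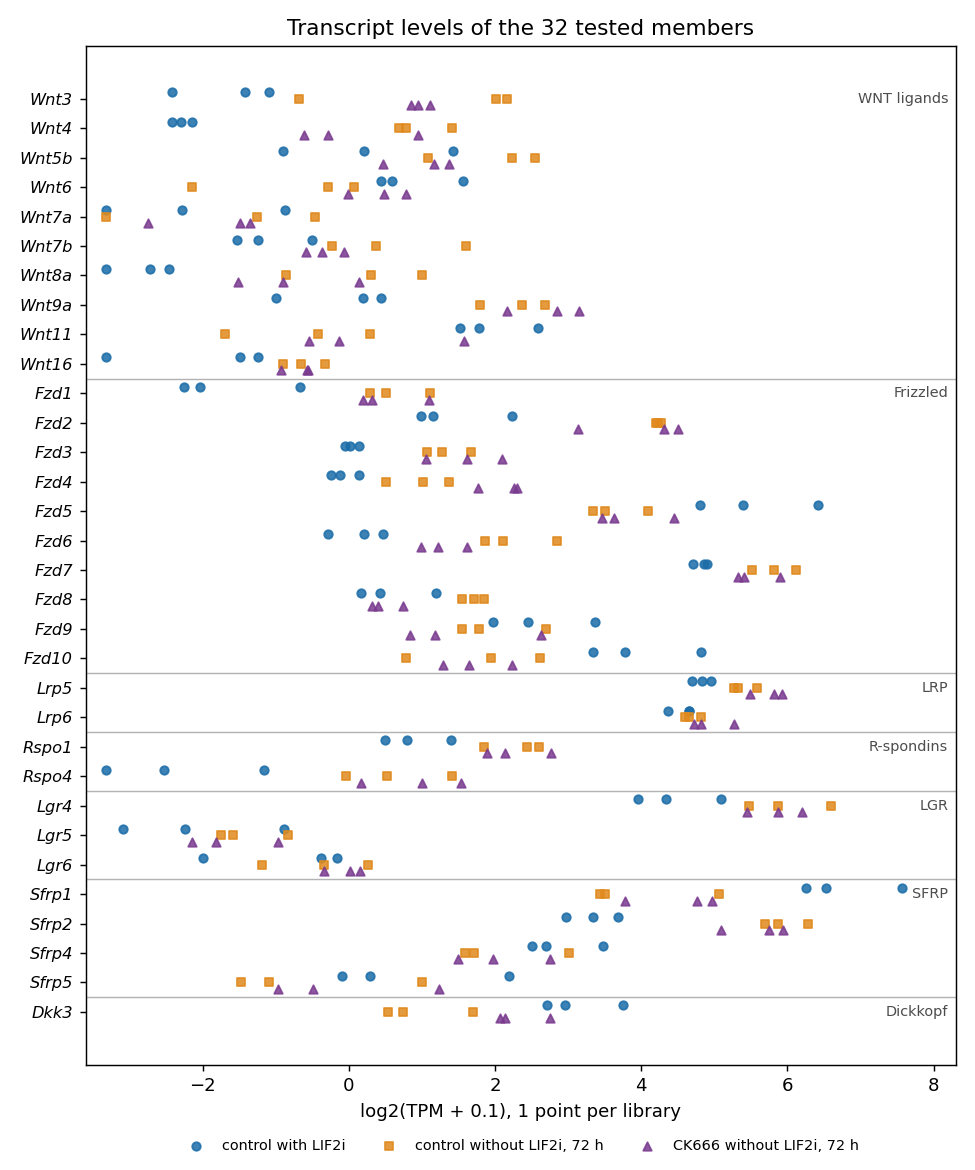
Levels of the 32 tested members, as log2(TPM + 0.1) on the horizontal axis, with 1 point per library and members ordered by role; circles are control cells with LIF2i, squares control cells without it and triangles CK666 cells. Sfrp1, Fzd5 and Fzd10 have their circles on the right, Sfrp2, Fzd2, Lgr4 and Wnt9a have them on the left, and the mean of the triangles is nearer to that of the squares than to that of the circles for each of these 7.

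The order of levels, read on the TPM scale that corrects for transcript length, differed between the groups. With LIF2i the highest member was Sfrp1 at 119 ± 60.8 TPM (SD, n = 3), followed by Fzd5 at 51.7 ± 30.0, Lrp5 at 28.4 ± 2.56 and Fzd7 at 28.3 ± 1.89. Neighbours among these 4 overlapped in range. Without LIF2i the order began with Lgr4 at 66.6 ± 27.3 TPM, Sfrp2 at 62.6 ± 13.5, Fzd7 at 57.1 ± 12.0 and Lrp5 at 42.1 ± 5.13, again with overlapping neighbours, and Lrp5 lay clear of the next member, Lrp6. CK666 cells had the same 4 members at the top, from Lgr4 at 58.4 ± 14.9 TPM through Lrp5 and Sfrp2 to Fzd7 at 47.3 ± 10.9. No WNT ligand was among the 8 highest members in any group.

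Start sites are shown for 3 members that rose and lie at the top of the order without LIF2i, and for 1 ligand that fell. Each sequence is the 250 bases before the start in RefSeq (GRCm38.p6), read 5′ to 3′ on the plus strand, on which all 4 genes lie. The Sfrp2 window is chr3:83766071-83766320, the Lgr4 window chr2:109917397-109917646, the Fzd7 window chr1:59481897-59482146 and the window of the first Wnt11 start chr7:98834862-98835111. None of these windows overlaps an annotated exon. Capitals mark the TCF/LEF letters CTTTGAT or ATCAAAG, the GC box GGGCGG or CCGCCC, and CCAAT or ATTGG, searched on both strands and allowed to overlap.
Sfrp2: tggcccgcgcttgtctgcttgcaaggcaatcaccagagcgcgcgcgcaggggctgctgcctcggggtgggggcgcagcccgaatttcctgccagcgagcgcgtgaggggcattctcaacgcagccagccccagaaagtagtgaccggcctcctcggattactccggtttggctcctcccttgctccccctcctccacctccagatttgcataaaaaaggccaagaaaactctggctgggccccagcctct
Lgr4: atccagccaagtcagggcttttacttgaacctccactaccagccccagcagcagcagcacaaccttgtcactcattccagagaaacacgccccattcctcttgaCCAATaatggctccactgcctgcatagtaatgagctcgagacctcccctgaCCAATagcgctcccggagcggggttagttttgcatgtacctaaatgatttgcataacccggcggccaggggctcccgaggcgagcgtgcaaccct
Fzd7: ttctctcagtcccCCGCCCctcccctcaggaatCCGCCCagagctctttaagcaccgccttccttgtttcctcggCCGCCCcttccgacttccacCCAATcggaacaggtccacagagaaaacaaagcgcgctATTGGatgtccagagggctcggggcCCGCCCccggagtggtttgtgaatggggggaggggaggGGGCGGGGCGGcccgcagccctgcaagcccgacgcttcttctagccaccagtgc
Wnt11: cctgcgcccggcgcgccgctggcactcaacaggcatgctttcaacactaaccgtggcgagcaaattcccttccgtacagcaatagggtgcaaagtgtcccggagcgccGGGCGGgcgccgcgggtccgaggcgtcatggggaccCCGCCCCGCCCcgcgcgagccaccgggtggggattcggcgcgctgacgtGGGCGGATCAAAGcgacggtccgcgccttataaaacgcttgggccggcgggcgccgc

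Promoter windows were found for 29 of the 46 members, 32 windows in all. The TCF/LEF letters occurred in 2 of them, the first Wnt11 start and 1 of the Wnt5b starts, against 3.21% of all 32851 windows of the same length. In Wnt11 the last base of these letters lay 45 bases before the start, directly behind a GC box. Wnt11 fell and Wnt5b rose after withdrawal. The GC box occurred in 22 of the 32 windows against 32.7% of all windows, and CCAAT or ATTGG in 11 of 32 against 33.8%. TATAAA or TTTATA, left in lower case, occurred in 4 of 32 against 12.4%. The member windows had a median GC content of 67.4% against 52.4% for all windows. The Sfrp2 window held none of the capitalised motifs, Lgr4 held CCAAT in 2 places, and Fzd7 held 6 GC boxes and 2 CCAAT or ATTGG matches. A match of letters is a description and not a site.

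Among the ligands, 6 of the 10 tested rose after withdrawal and 1 fell, where 21.1% of all genes were called as raised and 19.7% as lowered. The other 9 ligands were not tested. A ligand scarce with LIF2i, such as Wnt8a at 0, 2 and 1 counts there, passed the filter on low counts through the other groups. The count of raised ligands therefore describes the tested ligands only. The summed level of all 19 ligands was 9.98 ± 3.33 TPM with LIF2i, 19.9 ± 6.91 without it and 16.8 ± 3.46 with CK666 (SD, n = 3). The ligands as a whole thus stayed far below the receptors. Wnt9a, a ligand with roles in joint and blood stem cell development, stood at 0.40, 1.04 and 1.26 TPM in replicates 1 to 3 with LIF2i and at 3.36, 5.05 and 6.34 without it. The ranges did not overlap, and the log2 fold change came to 2.44 ± 0.26 (edgeR adjusted p = 0.00011; errors of log2 fold changes are standard errors). Wnt4, a ligand of kidney and gonad development, was near the floor at 0.0864, 0.126 and 0.104 TPM with LIF2i and rose to 1.62, 1.51 and 2.55 without it. That is a log2 fold change of 4.08 ± 0.47 (adjusted p = 0.00017), which rests on 4, 8 and 5 counts with LIF2i and ran from 1.96, with limma on log2(TPM + 0.5), to 4.54 over the alternatives. A pseudocount of 0.5 TPM understates the change of a gene at this level. Wnt4 and Wnt9a passed in all 20 alternative analyses.

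Wnt3, a ligand needed for the primitive streak of the embryo, was at 0.0868, 0.371 and 0.273 TPM with LIF2i and at 4.38, 0.525 and 3.93 without it. Replicate 2 without LIF2i lay close to the self-renewal libraries, although the groups did not overlap. Its log2 fold change was 3.27 ± 0.82 (edgeR adjusted p = 0.011), and the call was lost without self-renewal replicate 3 (3.16) or withdrawn control replicate 3 (2.84). The value moved to 2.58 without self-renewal replicate 1, 4.16 without self-renewal replicate 2 and 4.18 without withdrawn control replicate 2. Wnt8a, which acts in the early embryo's posterior side, had 3 estimated counts over the 3 libraries with LIF2i and 72 over the 3 without it, a ratio of 24.1 with an exact 95% interval of 7.93 to 120 that covers counting error only. The fitted log2 fold change of Wnt8a was 4.25 ± 1.08 (adjusted p = 0.012). It was not called without self-renewal replicate 3 (4.17) or withdrawn control replicate 3 (3.36), and moved to 3.54 without self-renewal replicate 1, 5.40 without self-renewal replicate 2 and 4.85 without withdrawn control replicate 2.

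Wnt5b, a ligand known for signalling without beta-catenin, stood at 2.59, 0.436 and 1.06 TPM with LIF2i and at 5.73, 2.01 and 4.61 without it. Each replicate was higher after withdrawal. The groups overlapped, since self-renewal replicate 1 (2.59) lay above withdrawn control replicate 2 (2.01), and replicate 1 was the highest in both groups. Its log2 fold change was 1.66 ± 0.35 (edgeR adjusted p = 0.0048), and 0.068 without the replicate block. Wnt7b, a ligand of lung and placenta development, stood at 0.604, 0.321 and 0.248 TPM with LIF2i against 0.751, 1.19 and 2.95 without it, a log2 fold change of 1.75 ± 0.57 (adjusted p = 0.035). This call was lost on leaving out any one of 6 libraries, replicates 2 and 3 of each group, with values of 1.20 to 1.82, and the value was 2.48 without self-renewal replicate 1. Part of Wnt7b (6.61% of its exonic bases) is also annotated to another gene.

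Wnt11, a ligand of cell movement and heart development, was the ligand that fell. It stood at 5.90, 2.77 and 3.35 TPM with LIF2i, the highest level of any ligand there over all annotated transcripts, and at 0.65, 0.21 and 1.12 without it. Over all annotated transcripts the groups did not overlap, and Wnt11 made up 42.9%, 36.6% and 38.8% of the ligand TPM with LIF2i and 1.59% to 4.13% without it. Over protein-coding transcripts alone these shares were 51.6%, 19.1% and 32.6% with LIF2i and 0 to 4.15% without it. In self-renewal replicate 2, 1.54 of the 2.77 TPM of Wnt11 belonged to a transcript annotated as subject to nonsense-mediated decay. Its log2 fold change on counts was -2.0 ± 0.67 (edgeR adjusted p = 0.038). The call was lost without the replicate block (0.14) and on leaving out any single library other than self-renewal replicates 1 and 3, with values of -2.35 to -1.27 where it was lost. The value was -1.27 without self-renewal replicate 2 and -2.66 without self-renewal replicate 3. Wnt6, a ligand known from epithelia, stood at 2.85, 1.40 and 1.26 TPM with LIF2i and at 0.127, 0.723 and 0.951 without it. Its ranges over all annotated transcripts did not overlap, but it was not called (log2 fold change -1.49 ± 0.68, adjusted p = 0.11).

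The remaining ligands were scarce. Wnt7a and Wnt16 were tested and not called, with at most 0.699 TPM in any library. The 9 untested ligands, with 2 R-spondins (Rspo2, Rspo3) and 3 Dickkopf proteins (Dkk1, Dkk2, Dkk4), had at most 17 counts and 0.75 TPM in a library, and 5 of these 14 reached 10 counts in any library. Wnt1, the founding member of the family, was at 0 in all 9 libraries, where a library of this depth has a floor of 3 counts or 0.133 to 0.178 CPM (counts relative to the library's size). Wnt3a, a ligand often added to stem cell cultures, had 14, 6 and 5 counts with LIF2i, 4, 3 and 2 without it and 0, 1 and 2 with CK666. Wnt10b had 26 counts over the withdrawn control libraries, 17 of them in replicate 3, and 1 with LIF2i (ratio 26.1, exact 95% interval 4.29 to 1072).

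All 10 Frizzled receptors were tested, and 7 rose and 2 fell after withdrawal, against 21.1% and 19.7% of all genes. Their summed level was 111 ± 43.0 TPM with LIF2i, 111 ± 13.4 without it and 98.4 ± 27.8 with CK666 (SD, n = 3), within the spread between replicates, while the make-up differed. Fzd5 held 53.5%, 35.6% and 43.9% of the Frizzled TPM in the self-renewal libraries and 14.0%, 8.7% and 11.8% in the withdrawn controls. Fzd7 went from 16.3%, 37.2% and 30.9% to 46.4%, 60.3% and 47.7%. Fzd2 held 2.22% to 2.89% with LIF2i and 15.4% to 19.2% without it, and Fzd10 12.8% to 17.7% and 1.4% to 4.98%. Fzd7 exceeded Fzd5 3.31-fold to 6.94-fold in the withdrawn controls, and the ratio of Fzd7 to Fzd5 was 0.306, 1.04 and 0.705 with LIF2i.

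**Figure D2:**
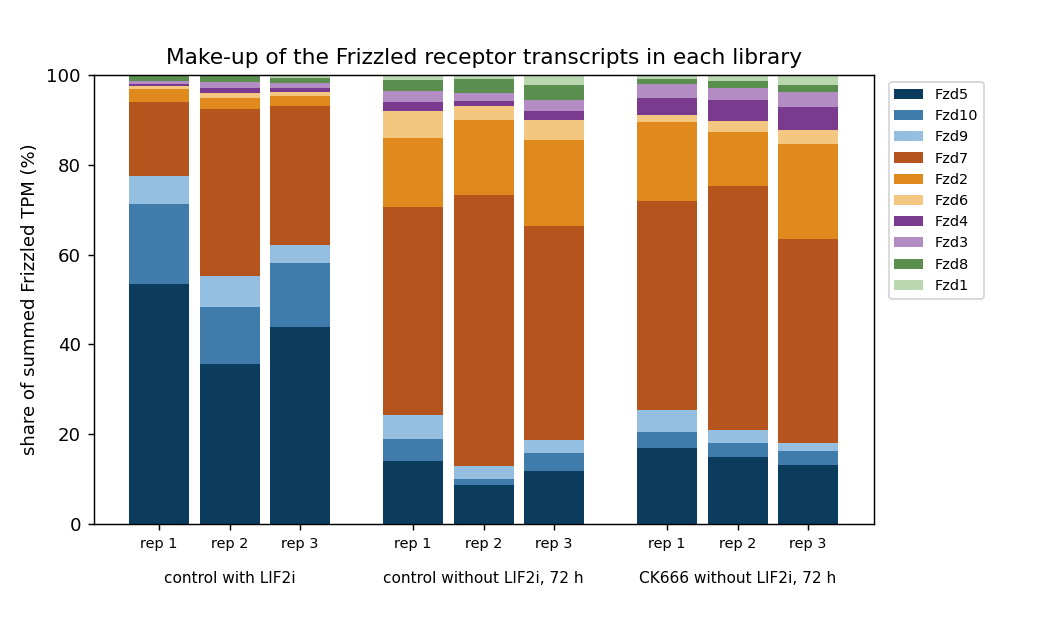
Share of each Frizzled receptor in the summed Frizzled TPM, in percent on the vertical axis, with 1 stacked bar per library and the 3 groups side by side. The dark blue band of Fzd5 spans 35.6% to 53.5% with LIF2i and at most 17% in the 6 libraries without it, where the brown band of Fzd7 spans 45.3% to 60.3%.

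Fzd5, a receptor of canonical ligands, stood at 85.4, 27.8 and 42.1 TPM with LIF2i and at 16.9, 10 and 11.3 without it. Replicate 1 was the highest library of each group, and the groups did not overlap. Its log2 fold change was -1.92 ± 0.13 (edgeR adjusted p = 1.3e-05). Fzd10, a receptor of the same pathway that is also known from gut tumours, stood at 28.2, 10 and 13.6 TPM against 6.03, 1.62 and 3.77, a log2 fold change of -2.24 ± 0.22 (adjusted p = 6.4e-05) with no overlap. Fzd9 showed values of 10.2, 5.38 and 3.82 TPM with LIF2i and 6.38, 3.34 and 2.82 without it, lower in each replicate but overlapping, and was not called (log2 fold change -0.64 ± 0.26, adjusted p = 0.073). Of the Fzd5 exonic bases, 17.8% are also annotated to Gm38058 on the opposite strand, which had no row among the transcripts used here.

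Fzd7, the Frizzled receptor most often described in pluripotent cells, stood at 26.1, 29.0 and 29.7 TPM with LIF2i and at 56.2, 69.6 and 45.6 without it. All 3 withdrawn libraries lay above all 3 self-renewal libraries, with a log2 fold change of 0.95 ± 0.20 (edgeR adjusted p = 0.0052). Fzd2, a receptor of both beta-catenin and other WNT signalling, stood at 4.62, 1.89 and 2.13 TPM against 18.7, 19.3 and 18.3. Its libraries without LIF2i were within 1 TPM of one another, and its log2 fold change was 2.80 ± 0.30 (adjusted p = 0.00012). Fzd1, close in sequence to both, was low at 0.145, 0.109 and 0.528 TPM with LIF2i and 1.33, 1.12 and 2.06 without it, a log2 fold change of 2.66 ± 0.41 (adjusted p = 0.00095). Words of 31 bases shared with another member made up 1.61% of Fzd1, 1.90% of Fzd2 and 0.777% of Fzd7. Fzd1 had 7, 7 and 27 counts with LIF2i, where Fzd7 had 1369, 2020 and 1644, so the level of Fzd1 is uncertain there; how reads were divided among the 3 was not tested.

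Fzd6, a receptor known from the orientation of hair follicles, stood at 1.29, 0.724 and 1.05 TPM with LIF2i and at 7.10, 3.53 and 4.22 without it, a log2 fold change of 1.87 ± 0.26 (edgeR adjusted p = 0.00052). Fzd3, its close relative in axon guidance, stood at 0.862, 1.00 and 0.91 TPM against 3.09, 2.00 and 2.31, a log2 fold change of 1.31 ± 0.27 (adjusted p = 0.0045). Neither receptor's groups overlapped. Fzd1, Fzd2, Fzd3, Fzd5, Fzd6, Fzd7 and Fzd10 each passed in all 20 alternative analyses. Fzd4, the Norrin receptor of retinal vessels, stood at 0.744, 0.997 and 0.824 TPM with LIF2i and 2.49, 1.32 and 1.92 without it (log2 fold change 1.05 ± 0.29, adjusted p = 0.018). Fzd8, a receptor of canonical ligands, stood at 2.19, 1.02 and 1.25 TPM against 2.84, 3.52 and 3.19 (log2 fold change 1.11 ± 0.28, adjusted p = 0.011). The Fzd4 call was lost without withdrawn control replicates 1 (0.85) or 3 (1.06) or self-renewal replicate 3 (0.97). The Fzd8 call was lost without self-renewal replicates 2 (0.94) or 3 (0.98) or withdrawn control replicate 2 (0.89).

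Lrp5 and Lrp6, the coreceptors, stood above 20 TPM in all 9 libraries. Lrp5 stood at 31, 28.4 and 25.9 TPM with LIF2i and at 47.9, 38.5 and 39.8 without it, with no overlap and a log2 fold change of 0.51 ± 0.13 (edgeR adjusted p = 0.012). The call was lost without self-renewal replicate 3 (0.46, adjusted p = 0.065). Lrp6 stood at 25.2, 20.6 and 25.0 TPM against 28.0, 25.2 and 24.2 and was not called (log2 fold change 0.02 ± 0.10, adjusted p = 0.92). The sign of this small Lrp6 value turned when withdrawn control replicate 2 or all replicate 2 libraries were left out.

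The R-spondins and their receptors were higher without LIF2i where they were called. Lgr4 carried nearly all of the LGR transcripts, with at least 94.5% of their TPM in every library. It stood at 33.9, 15.5 and 20.2 TPM with LIF2i and at 97.0, 44.3 and 58.5 without it. Replicate 1 was again the highest in each group, the groups did not overlap, and the log2 fold change was 1.52 ± 0.11 (edgeR adjusted p = 1.8e-05), with 1.46 to 1.56 across the alternatives. Rspo1 stood at 2.54, 1.64 and 1.31 TPM with LIF2i against 5.30, 5.96 and 3.50, a log2 fold change of 1.89 ± 0.39 (adjusted p = 0.0042). Rspo4, known from nail development, had 14 estimated counts in all with LIF2i, in libraries at 0, 0.349 and 0.0728 TPM, and stood at 2.57, 1.34 and 0.872 without it.

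The log2 fold change of Rspo4 was 3.20 ± 0.92 (edgeR adjusted p = 0.020). It was not called without withdrawn control replicates 1 (2.85) or 2 (3.55) or self-renewal replicate 3 (2.98), and moved to 2.29 and 5.39 without self-renewal replicates 1 and 2. Lgr6 had 12, 15 and 17 estimated counts with LIF2i and 66, 32 and 39 without it, a log2 fold change of 1.54 ± 0.50 (adjusted p = 0.033). Its TPM over all annotated transcripts overlapped, at 0.152, 0.796 and 0.668 against 1.10, 0.341 and 0.692. A transcript of 360 bases not annotated as coding gave 0.580 and 0.471 TPM in self-renewal replicates 2 and 3 and 0 in the withdrawn controls. Over coding transcripts alone Lgr6 did not overlap between these groups. Its call held in 2 of the 9 analyses that left out 1 library, those without withdrawn control replicate 2 and without CK666 replicate 1, and the values where it was lost ran from 1.09 to 1.84. On length-corrected scales the value of Lgr6 was 0.23 with limma on log2(TPM + 0.5) and 0.46 with the effective length correction, neither of which called it, and 7 of the 20 alternatives made the call. Lgr5, the stem cell marker of the gut, stayed at or below 0.461 TPM in every library and was not called.

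**Figure D3:**
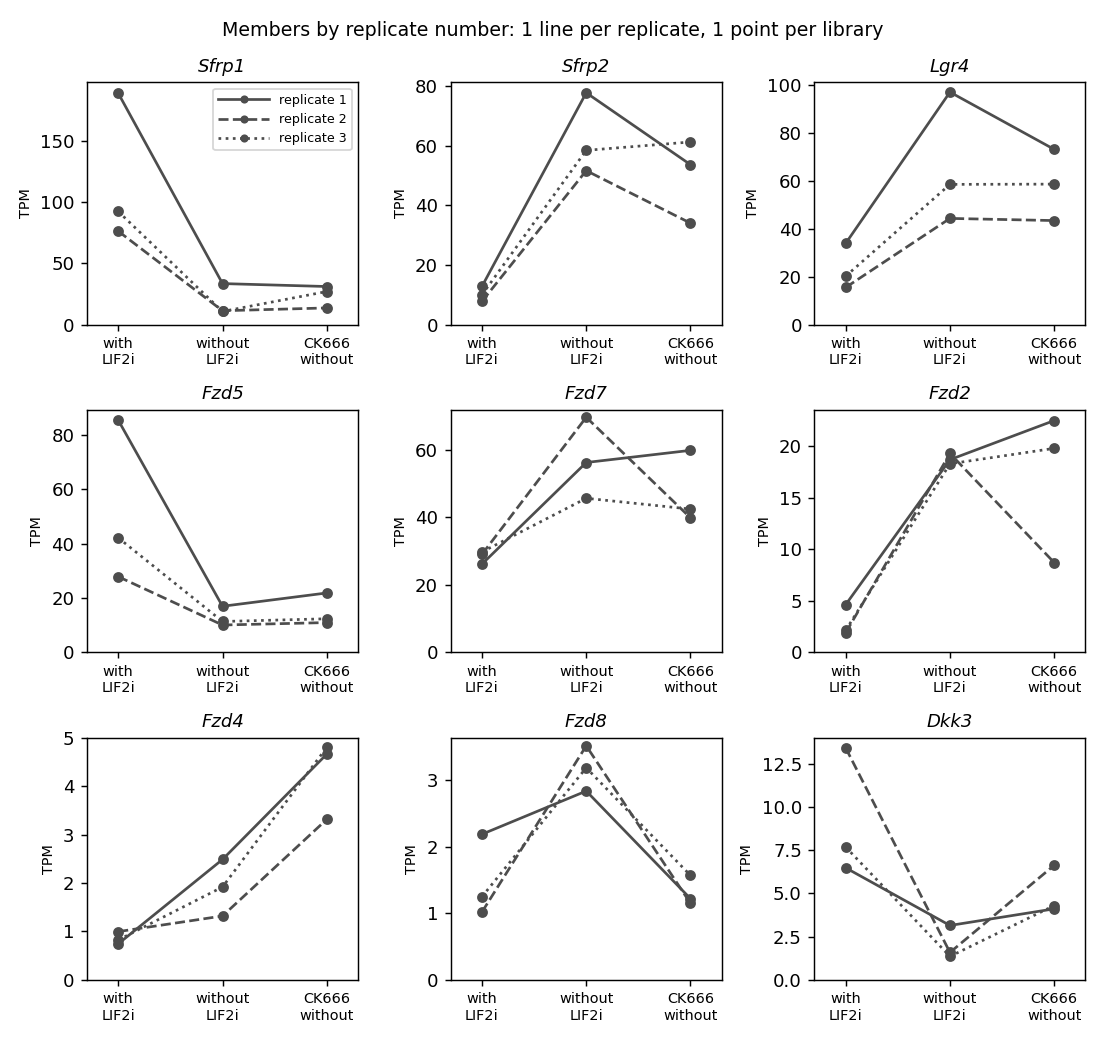
TPM of 9 members on the vertical axis, 1 panel per member, across control cells with LIF2i, control cells without it and CK666 cells; each line joins the 3 libraries of 1 replicate number. The 3 lines fall together for Sfrp1 and Fzd5 and climb together for Sfrp2, Lgr4 and Fzd4 from the first group to the second, and Fzd8 and Dkk3 turn back between the second and the third.

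The secreted Frizzled-related proteins, which carry a Frizzled-like domain that binds WNT ligands, exchanged their leading member. Sfrp1 stood at 189, 76.3 and 92.4 TPM with LIF2i and at 33.5, 11.3 and 10.7 without it, a log2 fold change of -2.80 ± 0.23 (edgeR adjusted p = 3.2e-05). Sfrp2 stood at 12.8, 7.78 and 10 TPM against 77.7, 51.6 and 58.4, a log2 fold change of 2.74 ± 0.20 (adjusted p = 1.6e-05). The lowest Sfrp1 library with LIF2i lay above the highest without it, the Sfrp2 libraries lay the other way round, and both passed in all 20 alternative analyses. Sfrp1 held 84.1% to 87.0% of the family's TPM with LIF2i and 14.8% to 27.6% without it. Sfrp2 held 5.9% to 9.14% and then 64.2% to 80.8%, or 3.27% to 7.55% and 62.6% to 75.4% over protein-coding transcripts alone. The ratio of Sfrp2 to Sfrp1 was 0.0678, 0.102 and 0.108 in the self-renewal libraries and 2.32, 4.58 and 5.46 in the withdrawn controls.

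The summed level of the 4 related proteins was 139 ± 68.1 TPM with LIF2i, 86.6 ± 30.0 without it and 79.0 ± 23.4 with CK666. Sfrp5 stood at 4.47, 1.12 and 0.842 TPM with LIF2i and 1.91, 0.37 and 0.259 without it, lower in each replicate with overlapping groups. Its log2 fold change was -1.50 ± 0.45 (edgeR adjusted p = 0.024), and the call was lost without the replicate block (0.32). Leaving out withdrawn control replicate 1, 2 or 3 or self-renewal replicate 2 or 3 also ended the Sfrp5 call, at -1.68 to -1.40. Sfrp4 stood at 11, 5.56 and 6.37 TPM against 7.98, 3.17 and 2.91 and was not called (log2 fold change -0.67 ± 0.24, adjusted p = 0.052). For Sfrp2, 16.1% of the exonic bases are also annotated to Gm26771 on the opposite strand, which had no row among the transcripts used here. The coding transcript of Sfrp2 by itself stood at 6.90, 6.78 and 7.55 TPM with LIF2i and 72.5, 42.1 and 42.5 without it.

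Dkk3 was the one Dickkopf gene above the filter, and a divergent member of its family. It stood at 6.47, 13.4 and 7.67 TPM with LIF2i and at 3.14, 1.58 and 1.35 without it, with no overlap. Its log2 fold change was -2.20 ± 0.38 (edgeR adjusted p = 0.0017), it passed in all 20 alternatives, and the value moved to -2.79 without withdrawn control replicate 1.

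Between CK666 and control cells, both without LIF2i, 0 of the 32 tested members passed an adjusted p of 0.05 in edgeR's test, where 2.05% of all genes passed. An unadjusted p under 0.05 was found for 9 members, 5 higher and 4 lower with CK666, against 19.7% of all genes. DESeq2 called 3 members, Fzd4 and Dkk3 as raised and Fzd8 as lowered, and 7.78% of all genes. Limma on log2(TPM + 0.5) called none of the members, and edgeR without the replicate block called none of the members and none of the genes (0%). The median log2 fold change was -0.01 over the tested members and 0.02 over all genes. Over all annotated transcripts the groups' TPM ranges were apart for 4 of the 32 members, Fzd4 and Dkk3 as higher and Fzd6 and Fzd8 as lower. They were apart for 14% of all genes. The calls depended on single libraries, and the count over all genes, 300, ran from 2 to 1657 when 1 library was left out. Without self-renewal replicate 1, edgeR called Fzd4, Dkk3, Fzd8 and Wnt5b, with an adjusted p of 0.0081, 0.019, 0.0056 and 0.045. Dkk3 alone was called without withdrawn control replicate 1 (1.93, adjusted p = 0.031), and Fzd4 alone without self-renewal replicate 2 (1.19, adjusted p = 0.035).

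Fzd8 stood at 2.84, 3.52 and 3.19 TPM in control cells without LIF2i and at 1.22, 1.15 and 1.57 with CK666, against 2.19, 1.02 and 1.25 with LIF2i. The 3 CK666 libraries lay below the 3 withdrawn controls and within the self-renewal range. The log2 fold change against the withdrawn control was -1.27 ± 0.28 (edgeR adjusted p = 0.052), and 5 of 20 alternatives called it, with an adjusted p of 0.0016 to 0.39. Fzd4 stood at 4.67, 3.32 and 4.81 TPM with CK666, above every withdrawn control library (2.49, 1.32 and 1.92), with a log2 fold change of 1.19 ± 0.28 (adjusted p = 0.060). For Fzd4, 6 of 20 alternatives made the call, with an adjusted p of 0.0034 to 0.48. Dkk3 stood at 4.10, 6.62 and 4.29 TPM with CK666, between the withdrawn controls and most self-renewal libraries, with a log2 fold change of 1.30 ± 0.37 (adjusted p = 0.099, and 0.0021 to 0.56 over the alternatives, of which 5 called it).

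The other 6 members with an unadjusted p under 0.05 were further from the threshold. Fzd6 stood at 2.24, 1.88 and 2.98 TPM with CK666, below the 7.10, 3.53 and 4.22 of the withdrawn controls (log2 fold change -0.67 ± 0.25, edgeR adjusted p = 0.18). Of these withdrawn control values, 2.99, 0.641 and 0.692 TPM belonged to a retained-intron transcript. Over coding transcripts alone the 2 groups overlapped for Fzd6. Wnt4 stood at 0.553, 0.722 and 1.83 TPM (log2 fold change -0.97 ± 0.38, adjusted p = 0.20) and Wnt5b at 2.49, 1.28 and 2.15 (-0.94 ± 0.34, adjusted p = 0.17), each lower than its same-numbered withdrawn control in 3 of 3 pairs. Lrp5 stood at 60.5, 44.6 and 56.4 TPM (log2 fold change 0.37 ± 0.13, adjusted p = 0.15) and Lrp6 at 38.6, 26.2 and 28.2 (0.24 ± 0.10, adjusted p = 0.25), each higher in 3 of 3 pairs. Sfrp1 stood at 31.1, 13.6 and 27.0 TPM, with overlapping groups (log2 fold change 0.52 ± 0.22, adjusted p = 0.24). None of these 6 passed after adjustment in the fit over all 9 libraries, and Wnt5b passed in 1 of 20 alternatives.

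Fzd5, Lgr4, Sfrp2 and Wnt9a, which had passed for withdrawal in all 20 alternatives, were not called for CK666. Their log2 fold changes were 0.23 ± 0.13 for Fzd5 (edgeR adjusted p = 0.37), -0.11 ± 0.11 for Lgr4 (0.65), -0.21 ± 0.19 for Sfrp2 (0.59) and 0.48 ± 0.23 for Wnt9a (0.29). Wnt9a stood at 4.38, 7.09 and 8.81 TPM with CK666, higher than the control in each pair. Sfrp2 stood at 53.6, 34.0 and 61.2 TPM, and Lgr4 at 73.1, 43.4 and 58.6. The 23 members with an unadjusted p of 0.05 or more had log2 fold changes from -1.15 (Wnt7b) to 1.17 (Wnt6). Of all 32, none of which was called in the main test, 14 changed sign in at least 1 alternative. In CK666 cells Fzd5 made up 13.1% to 17% and Fzd7 45.3% to 54.3% of the Frizzled TPM, and Sfrp2 57.3% to 67.0% of the Sfrp TPM. A p above the threshold does not show that the levels were alike.

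**Figure D4:**
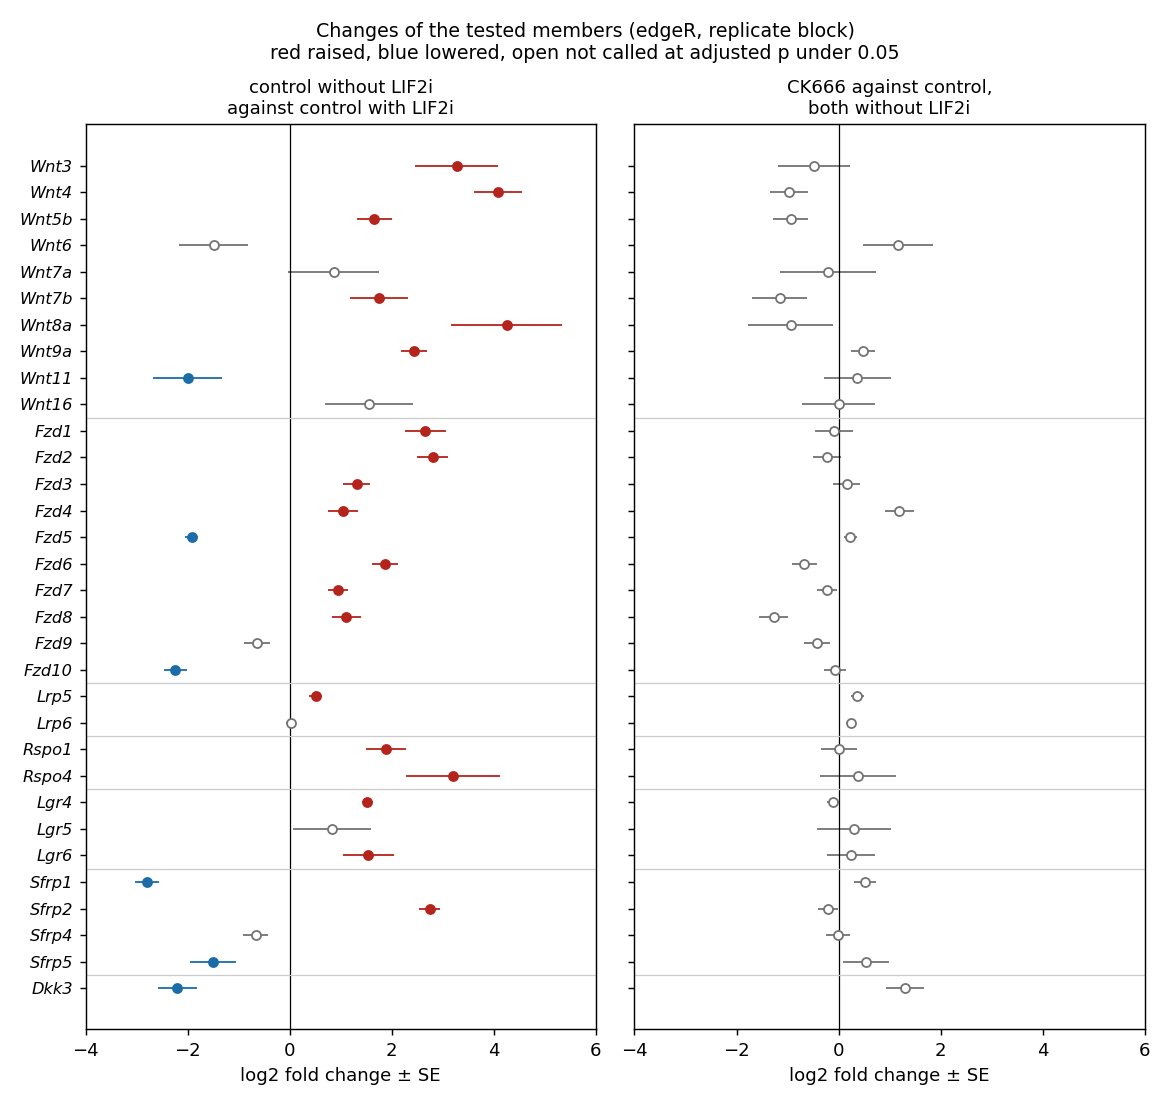
Log2 fold change ± SE of the 32 tested members on the horizontal axis, for withdrawal on the left and for CK666 against control without LIF2i on the right; filled red points were called as raised, filled blue points as lowered, and open points were not called. The left panel holds 19 red and 6 blue points, and every point of the right panel is open.

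Set against self-renewal, CK666 cells had 20 of 32 members called, 16 raised and 4 lowered, where 36.9% of all genes passed, 19.8% as raised and 17.1% as lowered (5408 genes, and 3544 without CK666 replicate 3). This comparison shares its self-renewal libraries with the withdrawal comparison, so the values are given beside each other and their likeness is not a result. The median log2 fold change was 1.00 over the tested members. Sfrp1 changed by -2.28 ± 0.23 (edgeR adjusted p = 9.9e-05; withdrawn control against self-renewal -2.80), and Sfrp2 by 2.53 ± 0.20 (3e-05; 2.74). Fzd5 changed by -1.69 ± 0.13 (2.9e-05; -1.92), Fzd10 by -2.31 ± 0.22 (6.8e-05; -2.24), Fzd2 by 2.56 ± 0.29 (0.00021; 2.80) and Lgr4 by 1.41 ± 0.11 (3.3e-05; 1.52). The ligand Wnt9a changed by 2.92 ± 0.26 (5.2e-05; 2.44) and Wnt4 by 3.11 ± 0.47 (0.00087; 4.08). These 8 members, with Fzd1, Fzd3, Fzd4 and Lrp5, passed in all 20 alternatives of this comparison.

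Fzd4 changed by 2.25 ± 0.29 against self-renewal with CK666 (edgeR adjusted p = 0.00042) and by 1.05 ± 0.29 without it, and Lrp5 by 0.88 ± 0.13 (0.00078) and 0.51 ± 0.13. Fzd8 changed by -0.16 ± 0.28 with CK666 (0.69) and by 1.11 ± 0.28 without it. For each of these the difference between the 2 values is the comparison of CK666 with the withdrawn control given above, which was not called. Fzd7 (0.72 ± 0.20, adjusted p = 0.022) was not called without the replicate block (0.072), nor without self-renewal replicates 1 (0.51) or 2 (0.76) or CK666 replicates 1 (0.45) or 3 (0.77). Fzd9 (-1.07 ± 0.26, adjusted p = 0.011) was not called without the block (0.20), nor without self-renewal replicate 2 (-0.93) or CK666 replicates 2 (-0.93) or 3 (-0.95). Dkk3 (-0.90 ± 0.35, adjusted p = 0.075) was not called in the main test, while 5 of 20 alternatives called it, among them DESeq2 (adjusted p = 0.034).

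Other calls of this comparison were less steady. Wnt3 (2.79 ± 0.79, edgeR adjusted p = 0.021) was lost without self-renewal replicates 1 (2.17) or 3 (2.70) or CK666 replicates 1 (2.79) or 2 (2.43), and moved to 3.88 without self-renewal replicate 2. Wnt8a had 35 counts with CK666 against 3 with LIF2i (ratio 12, exact 95% interval 3.77 to 60.8; adjusted p = 0.043), and its call was lost on leaving out any single library other than self-renewal replicate 2 and CK666 replicate 3. The fitted value of Wnt8a, 3.30 ± 1.11, moved to 2.53 and 4.50 without self-renewal replicates 1 and 2 and to 2.59 and 4.01 without CK666 replicates 1 and 3. Rspo4 (3.58 ± 0.93, adjusted p = 0.015) was lost without CK666 replicates 1 (3.36) or 3 (3.22) or self-renewal replicate 3 (3.34). Without self-renewal replicates 1 and 2 and CK666 replicate 2, the value of Rspo4 was 2.63, 5.66 and 4.44. Lgr6 (1.8 ± 0.49, adjusted p = 0.019) was lost without self-renewal replicate 2 (1.75) or CK666 replicates 2 (1.39) or 3 (1.94). Fzd6 (1.20 ± 0.26, adjusted p = 0.0065) and Rspo1 (1.89 ± 0.39, adjusted p = 0.0048) passed in 18 and 19 of 20 alternatives.

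Around the module, 65 other genes of the pathway were listed, 26 that act in secretion or at the surface and 39 in the cytoplasm and nucleus, and 59 were tested. After withdrawal 24 rose and 10 fell, 57.6% of those tested, against 40.7% of all genes, 21.1% as raised and 19.7% as lowered. Lef1, a nuclear partner of beta-catenin, stood at 0.517, 1.12 and 0.443 TPM with LIF2i and at 19.6, 7.61 and 7.54 without it (log2 fold change 3.90 ± 0.46, edgeR adjusted p = 0.00024; 4.74 without self-renewal replicate 2). Tcf7 rose (1.39 ± 0.12, adjusted p = 4.3e-05), and Tcf7l1, which mostly represses, rose with the block (0.67 ± 0.14, adjusted p = 0.0053) and was not called without it (0.19). Wls, which carries WNT ligands to the surface, stood at 1.46, 3.04 and 5.02 TPM with LIF2i and 23.1, 15.6 and 24.1 without it (2.82 ± 0.37, adjusted p = 0.00045). Porcn, which attaches the lipid to WNT ligands, was not called (0.00 ± 0.37, adjusted p = 1.0). Axin2, a widely used target gene of beta-catenin, stood at 9.19, 3.30 and 7.21 TPM against 6.88, 5.81 and 12.6 and was not called (0.34 ± 0.20, adjusted p = 0.21), nor was Ctnnb1, which encodes beta-catenin (0.06 ± 0.14, adjusted p = 0.75).

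The largest changes in that list were those of Ror1, Trabd2b and Lef1 upwards and of Notum, Ror2 and Tle3 downwards. Ror1, a receptor kinase for WNT5-type ligands, rose by 4.73 ± 0.85 (edgeR adjusted p = 0.0021), with 3.77, 7.09 and 5.48 without self-renewal replicates 1 and 3 and withdrawn control replicate 3. Its relative Ror2 fell by 1.79 (SE 0.22, adjusted p = 0.00024). Trabd2b, which cleaves WNT ligands, stayed at or below 0.418 TPM (3.97 ± 1.22, adjusted p = 0.027). It was lost without withdrawn control replicates 1 (3.22) or 3 (4.15) or self-renewal replicate 3 (3.07), and moved to 3.32, 8.03 and 4.90 without self-renewal replicates 1 and 2 and withdrawn control replicate 2. With limma on log2(TPM + 0.5) the value of Trabd2b was 0.61 and it was not called, as in 6 of the 20 alternatives in all. Notum, which removes the lipid from WNT ligands, stood at 13.0, 5.91 and 4.22 TPM with LIF2i and 1.61, 1.26 and 1.27 without it (-3.04 ± 0.65, adjusted p = 0.0052; -1.99 without self-renewal replicate 1). Tle3, a corepressor of TCF factors, changed by -1.30 ± 0.14 (adjusted p = 0.00011).

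With CK666, 2 of the 59 genes (3.39%) were called against the withdrawn control, both as raised, near the 2.05% of all genes, and 0 to 7 were called as raised with 1 library left out. Adgra2, a coreceptor for WNT7 ligands in blood vessels, stood at 6.63, 7.29 and 2.16 TPM against 1.48, 1.36 and 0.949 (log2 fold change 1.92 ± 0.27, edgeR adjusted p = 0.021). Tle3 stood at 58.5, 81.0 and 82.6 TPM against 54.6, 46.5 and 47.6 (0.67 ± 0.14, adjusted p = 0.043). Neither was called without the replicate block, at 0.30 and 0.37. Adgra2 was also lost without withdrawn control replicates 1 (1.72), 2 (1.77) or 3 (2.24) or CK666 replicate 2 (1.81), and Tle3 on leaving out any single library other than self-renewal replicate 1 and CK666 replicate 1 (0.54 to 0.75). Against self-renewal, CK666 cells had 20 of the 59 raised and 7 lowered (45.8% called), against 36.9% of all genes, 19.8% as raised and 17.1% as lowered.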

How the data were processed

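RNA-seq was analysed for 9 libraries of E14 cells, 3 per group. The submitters' processing notes name FastQC, cutadapt 1.8.1, kallisto and sleuth, and the builds GRCh38 and mm10; the transcript release and whether counting used strand are not given in the sources used here. The authors deposited 1 table per library with 119414 transcripts. Per the file headers it gives an estimated count, which is not normalised, and TPM, which the authors scaled within each library and corrected for transcript length. Effective lengths, also deposited, served in 1 alternative only.

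Transcripts were assigned to genes with GENCODE M21 (GRCm38). A gene was found for 116640 transcripts (97.7%), and the 2774 others were left out. Estimated counts were summed per gene and rounded. The totals of 16894327 to 22550952 counts set a floor of 3 counts at 0.133 to 0.178 CPM, and intervals cover counting error only. Since the use of strand is not given, reads of overlapping genes on opposite strands may not have been told apart.

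All 9 libraries entered one robust quasi-likelihood fit of edgeR 4.0.16 in R 4.3.3, with TMM scaling, edgeR's filter on low counts (14648 genes kept), the replicate number as a block, 4 residual degrees of freedom and Benjamini-Hochberg adjustment over all genes tested. A gene was called at an adjusted p under 0.05, and SE are of log2 fold changes. The pairing comes from the series' design text and the numbered titles. Deviations of same-numbered libraries from their group means correlated at 0.30 to 0.65 over 9 pairs, with a median of 0.41. The median for other numbers was -0.37, but centring on group means ties this value to the first, so it is no separate evidence. The chi-square per gene between replicates of a group was 18.7 to 242, more than sampling noise gives. Each comparison was refitted under 20 alternatives, including DESeq2 1.42.0, limma 3.58.1 on log2(TPM + 0.5), no block, no filter and each library or replicate number left out; counting protein-coding transcripts only was added after seeing the data. Only the main edgeR fit for withdrawal was run on simulated counts, with changes placed in well-counted genes. The CK666 comparisons, the other methods and changes in low-count genes were not covered by it.

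Members described in full are those called in any comparison or with a mean of at least 1 TPM in a group. Of the other pathway genes, those named are the genes called for CK666, the 3 raised and the 3 lowered most by withdrawal, and Axin2, Lef1, Tcf7, Tcf7l1, Ctnnb1, Porcn and Wls whatever their result. The members and lists were chosen with earlier results of these data known.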

Additional observations from a re-analysis of the deposited data

How the results depend on the processing

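The 13 withdrawal calls that held in all 20 alternatives were those of Wnt4, Wnt9a, Fzd1, Fzd2, Fzd3, Fzd5, Fzd6, Fzd7, Fzd10, Lgr4, Sfrp1, Sfrp2 and Dkk3. Without the replicate block, genes called numbered 3509 of 5967 for withdrawal, 0 of 300 for CK666 and 2966 of 5408 for CK666 against self-renewal, and the other pathway genes called for CK666 numbered 0 raised, and 2 lowered against self-renewal; among members the block decided the calls of Wnt5b, Wnt11 and Sfrp5 for withdrawal and of Fzd7 and Fzd9 for CK666 against self-renewal. Leaving out libraries or replicate numbers gave 3099 to 6588 genes and 9 to 19 raised members for withdrawal, with 11 without self-renewal replicate 3. For CK666 it gave 0 to 1811 genes, 0 to 2 raised and 0 to 2 lowered members, and 0 to 7 raised and 0 to 3 lowered other pathway genes. For CK666 against self-renewal it gave 2413 to 6129 genes, 9 to 15 raised and 3 to 7 lowered members, and 13 to 25 raised and 4 to 7 lowered other pathway genes.

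The CK666 count of genes was 1140 with DESeq2, 565 without the filter, 45 with limma, 147 with the length correction and 1367 with the 2 groups alone. Raised and lowered members for CK666 numbered 2 and 1 with DESeq2, 1 and 1 without the filter, and 2 and 1 with the 2 groups alone. Other pathway genes raised by CK666 numbered 5, 4, 0, 1, 7 and 1 with DESeq2, no filter, limma, the length correction, the 2 groups alone and protein-coding transcripts only, and 1 and 3 were lowered with DESeq2 and the 2 groups alone. DESeq2 called 7 lowered members for CK666 against self-renewal, the 4 of the main test with Wnt11, Sfrp4 and Dkk3 (DESeq2 adjusted p = 0.044, 0.037 and 0.034). This count stands without the share over all genes and describes these members only. The R-spondin sum with LIF2i was 1.37 instead of 2.01 TPM over protein-coding transcripts. Limma on log2(TPM + 0.5) differs from the main test in model, length correction and pseudocount at once. With limma, withdrawal values fell from 3.27 to 1.94 for Wnt3, 4.25 to 1.51 for Wnt8a and 2.66 to 1.41 for Fzd1. They fell from 1.89 to 1.22 for Rspo1, 3.20 to 1.66 for Rspo4 and 4.73 to 2.06 for Ror1, all still called. For CK666 against self-renewal Lgr6 went from 1.8 to 0.46 and Wnt8a from 3.30 to 0.90, neither called there. The causes of all these changes were not tested.

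No called member turned sign. Among values not called, Lrp6 turned to -0.02 and -0.01 without withdrawn control replicate 2 and without replicate 2 (up to 0.07 with other libraries left out), Ctnnb1 to -0.02 in the former, and Fzd8 for CK666 against self-renewal to 0.19 and 0.16 without self-renewal replicate 1 and without replicate 1 (down to -0.36 with others left out). Wnt6, at -0.32 for CK666 against self-renewal, turned to 0.16 without CK666 replicate 3. Porcn turned to 0.02 without the block, 0.01 with DESeq2, 0.02 with DESeq2's size factors in edgeR, 0.02 without the filter, 0.03 with the 2 groups alone, 0.06 over protein-coding transcripts and ran from -0.24 to 0.36 with libraries left out. The 14 untested members had 17 counts or fewer in every library.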

Other observations

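The deposited estimate of several members was divided among annotated transcripts in ways that differed between libraries. Both coding transcripts of Fzd5 were lower without LIF2i: that of 6915 bases stood at 48.6, 20.7 and 31.5 TPM with LIF2i and at 9.97, 7.33 and 9.01 without it, and that of 2895 bases at 36.8, 7.09 and 10.6 against 6.98, 2.71 and 2.26. Wnt11 in self-renewal replicate 1 was carried by a coding transcript of 634 bases at 4.98 of 5.90 TPM, and this transcript stood at 0.446 and 2.10 TPM in replicates 2 and 3. Wnt9a has 2 coding transcripts of near-equal length, 3320 and 3318 bases. In withdrawn control replicate 1 the longer and the shorter held 2.68 and 0.681 TPM, and in replicate 2 they held 0 and 5.05. The gene counts behind the tests are sums over transcripts.

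Among members too low to test, Wnt9b had 17, 2 and 7 counts in the withdrawn controls, 0 in all 3 self-renewal libraries and 0, 0 and 1 with CK666. Wnt5a, a ligand of cell movement, had 9, 16 and 13 counts with LIF2i, 6, 5 and 9 without it and 12, 1 and 4 with CK666. Dkk1, the best known inhibitor of the LRP coreceptors, had at most 9 counts in any library.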
